A study of Mus musculus with 4 samples.

Results

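Ribosomal protein genes encode the protein subunits of the cytosolic ribosome, and in mouse islet cells their mRNAs are among the most abundant after those of the hormones. Members were chosen by symbol: every gene whose name starts with Rpl or Rps and a digit, together with Rplp0, Rplp1, Rplp2 and Rpsa, with the Rps6 kinases and named pseudogenes left out. This rule gave 86 of the 31053 genes in the count tables, 52 named after the large (60S) subunit and 34 after the small (40S) subunit. The symbol rule also takes in Rpl7l1 and Rps19bp1, which are named after ribosomal proteins and are not core subunits, and it misses some others, among them Fau and Rack1, which encode ribosomal proteins under other names and are described further on.

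Single-cell RNA was measured in pancreatic islets of C57BL/6 mice (C57BL6/J in the study's methods), pooled from male animals, that were left untreated or given IL-1β, IFN-γ or both cytokines in culture for 6 h. No genetic change was made in any group, and the labels give neither the dose nor the age of the mice. Each condition is 1 library, so a treatment and its library cannot be told apart, no test between conditions was possible, and the intervals below are 95% exact binomial intervals that cover counting error only. The tables held 12571 barcodes, of which 7471 passed the limits of 200 to 4000 genes and at most 12% mitochondrial UMIs (unique molecular identifiers, 1 per captured mRNA molecule).

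The untreated library stood apart in depth. It had a median of 15454 UMIs in its 1521 kept cells, against 7462.5 in 2018 cells with IL-1β, 9615 in 2122 cells with IFN-γ alone and 11123.5 in 1810 cells with both cytokines. The upper gene limit alone removed 843 barcodes there and 146, 345 and 222 in the other libraries. In β-like cells mitochondrial genes took 5.23%, 6.52%, 6.60% and 5.30% of UMIs in the same order; the part of depth and of mitochondrial share in the results was not tested. In all, 16 barcode sequences occurred in 2 libraries.

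Cells were classed by hormone UMIs, with insulin (Ins1 and Ins2), glucagon (Gcg), somatostatin (Sst) or pancreatic polypeptide (Ppy) at 5% or more of a cell's UMIs and at least 2 times the next hormone. This gave 4967 β-like, 675 α-like, 299 δ-like and 164 PP-like cells, and 853 cells stayed unnamed. In β-like cells all 9 β markers had UMIs in every library, and in α-like cells all 7 α markers did. This shows presence in the summed cells and not level, and it was read for these classes only. Of the non-endocrine lists, the macrophage one was read in β-like cells. Its 14 markers summed to 149, 93, 85 and 314 CPM (UMIs per 1000000 non-hormone UMIs) in the untreated, IL-1β-only, IFN-γ-only and combined libraries. Most of these UMIs were of C1qa, and Adgre1 was at 0 in all 4. Gcg reads in β-like cells were 610, 3124, 1023 and 1487 CPM in the same order. The part of RNA from other cells in the results below was not tested.

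Ribosomal proteins are needed in near-equal amounts, since most are present once in each ribosome. Their mRNAs share a 5′ terminal oligopyrimidine (TOP) tract, a C at the first base followed by a run of C and T, through which the kinase mTOR adjusts their translation. In β-cells this machinery carries the heavy load of insulin synthesis.

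Start-site sequences of members that moved in opposite directions, and of Rps6, which hardly moved, are shown because they carry the same kind of tract. They were picked from the 14 members that have one at the annotated start. Each window runs 5′ to 3′ on the gene's own strand, from 10 bases before the annotated RefSeq start (GRCm38.p6) through the start and the 19 bases after it, with the tract in capitals.
Rps27, chr3:90213629-90213658, minus strand: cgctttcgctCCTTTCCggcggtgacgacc
Rpl38, chr11:114668570-114668599, plus strand: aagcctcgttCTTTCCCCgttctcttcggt
Rps21, chr2:180257369-180257398, plus strand: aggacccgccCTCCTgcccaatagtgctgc
Rps10, chr17:27635225-27635254, minus strand: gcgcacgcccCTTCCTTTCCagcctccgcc
Rps6, chr4:86857348-86857377, minus strand: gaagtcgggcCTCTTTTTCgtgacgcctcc
Rps27, Rpl38 and Rps21 were among the members highest with IL-1β, Rps10 was the lowest, and Rps6, the 40S protein that the S6 kinases phosphorylate, was nearly level. Promoter windows of 250 bases before to 50 after the start were found for 66 of the 86 members. A C at the annotated start followed without a break by 4 or more C or T, read on the gene's strand, was present in 14 of these 66 (21.2%), against 813 of 27025 genes in the same table (3.01%). The letters CCGGAAG, searched on both strands, were in 26 of the 66 (39.4%) and in 2683 of all genes (9.93%); the reverse strand of this motif can overlap a pyrimidine tract. These are matches of letters at annotated starts, and a start annotated some bases away hides a tract.

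When all UMIs were counted, the share of ribosomal protein mRNAs in β-like cells was 7.09% untreated, 9.50% with IL-1β, 8.73% with IFN-γ alone and 8.61% with both cytokines. The untreated library was the lowest and the IL-1β library the highest. With the 7 hormone genes (Ins1, Ins2, Gcg, Sst, Ppy, Pyy and Iapp) left out of the total, the shares were 13.5%, 13.3%, 13.3% and 13.9%, and the order was no longer the same. Hormone genes took 47.6% of β-like UMIs untreated and 28.5%, 34.5% and 37.9% in the treated libraries. The quartiles over single β-like cells overlapped in all 4 libraries, at 11.3% to 15.2% untreated, 11.1% to 15.2% with IL-1β, 11.2% to 15.0% with IFN-γ alone and 11.8% to 15.5% with both. All levels that follow are in CPM, with the hormone genes out of the total.

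The summed level of the members in β-like cells was 0.982 of untreated with IL-1β (interval 0.980 to 0.985), 0.984 with IFN-γ alone (0.982 to 0.987) and 1.02 with both (1.02 to 1.03); with the median gene set at 0, the IL-1β sum was on the other side of untreated (log2 ratio 0.02), and so it was with each cell counted equally (0.01). With the hormone genes in the total the same ratios were 1.34, 1.23 and 1.21. The sum thus lay within 3% of untreated per non-hormone UMI, and the large and small subunits moved alike: the log2 ratios of their sums were -0.02 and -0.03 with IL-1β, -0.02 and -0.02 with IFN-γ, and 0.02 and 0.05 with both. The median of all genes was at -0.04, -0.004 and -0.16 in the 3 comparisons, so with both cytokines 73 of the 83 members measured stood above the median gene, and with that median set at 0 the summed log2 ratio was 0.20.

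**Figure D1:**
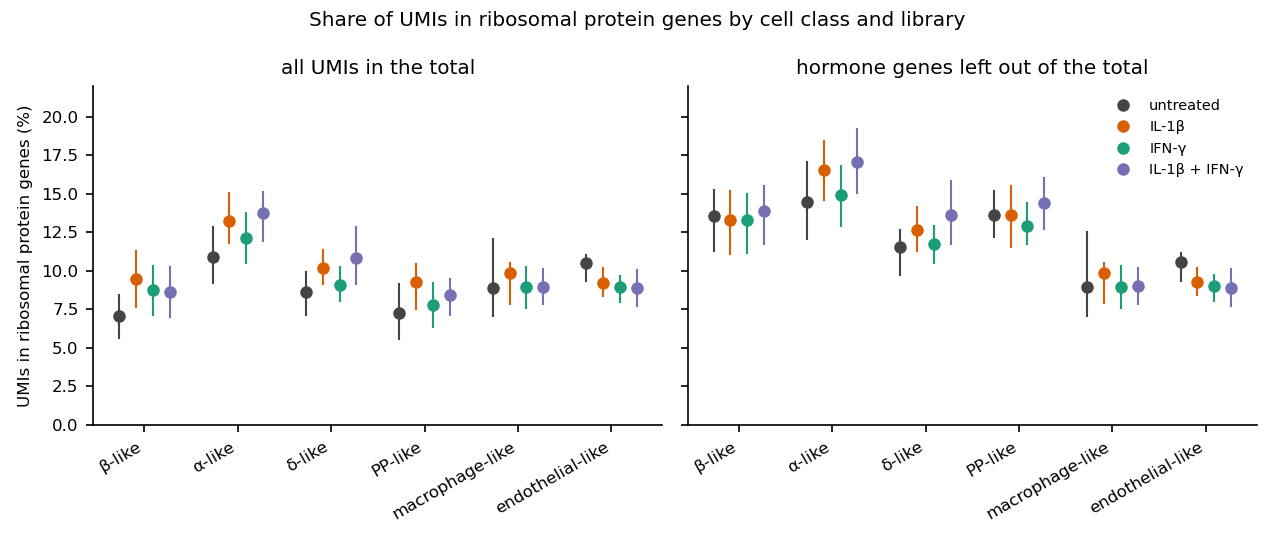
Share of UMIs in ribosomal protein genes (%) in 6 cell classes of the 4 libraries, with all UMIs (left) or non-hormone UMIs (right) in the total. Points are summed UMIs of all cells in a class and lines the quartiles over single cells; in β-like cells the untreated point is the lowest on the left (7.09%) and lies between the treated libraries on the right (13.5%).

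α-like cells had a higher share than β-like cells in every library, at 14.5% untreated (14.4 to 14.6), 16.5% with IL-1β, 14.9% with IFN-γ alone and 17.1% with both, all of non-hormone UMIs. The 2 libraries that received IL-1β were the higher ones. Relative to untreated the summed level was 1.14 with IL-1β (1.13 to 1.15), 1.03 with IFN-γ alone (1.02 to 1.04) and 1.18 with both (1.17 to 1.19). The untreated library held only 78 α-like cells, against 182, 272 and 143.

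δ-like cells had the lowest share among the endocrine classes, at 11.5%, 12.7%, 11.7% and 13.6% in the same order. Their summed level was 1.10 of untreated with IL-1β (1.08 to 1.11), 1.02 with IFN-γ alone (1.004 to 1.032) and 1.18 with both (1.16 to 1.20), from 37 untreated cells. With each cell counted equally, the IFN-γ log2 ratio was on the other side of untreated in α-like (-0.02) and in δ-like cells (-0.007). PP-like cells, with 23 to 63 cells a library, ranged from 12.9% to 14.4%. Among the non-endocrine classes, macrophage-like cells ranged from 8.95% to 9.88% and endothelial-like cells from 8.91% to 10.6%. Mesenchymal-like (15.1% to 18.5%), ductal-like (13.9% to 18.5%) and acinar-like cells (10.1% to 16.4%), with as few as 8, 21 and 11 cells in a library, reached higher. Hormone genes still took 3.65%, 8.81%, 3.24% and 5.98% of ductal-like UMIs in the untreated, IL-1β-only, IFN-γ-only and combined libraries. β-like cells of the treated libraries were also split at 10 Hspa1a UMIs per 10000 (Hspa1a encodes an inducible heat shock protein). With IL-1β the share was 16.8% in 102 cells at or above this level and 13.0% in the other 1086 cells. With IFN-γ alone it was 16.3% and 13.1%, and with both cytokines 15.1% and 13.8%. The cells with more Hspa1a were shallower, with medians of 6423 and 8581 UMIs with IL-1β. These medians were 9204 and 11182.5 with IFN-γ alone, and 12111 and 12270 with both. The 927 β-like cells with a UMI of Nos2, the inducible nitric oxide synthase, in the combined library were at 13.6% and the 372 without at 14.5%, and the cells with a UMI were deeper (medians of 12860 and 10579 UMIs).

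Single members moved much more than their sum. Of the 86 members, 83 reached a mean of 10 CPM in β-like cells and could be compared; Rpl3l, Rpl10l and Rpl39l, copies known mainly from muscle and testis, had 1, 0 and 2 UMIs over all β-like cells. With IL-1β, 15 members were at least 25% higher and 13 at least 20% lower than untreated, or 18.1% and 15.7% of the 83, while 27.3% of all 8737 genes compared were higher and 33.3% lower. With IFN-γ, 3 members were higher and 2 lower, against 15.3% of genes in each direction. With both cytokines, 5 were higher and 0 lower, against 22.2% and 39.5% of genes. With both cytokines and the median gene set at 0, 21 members were higher, where 30.2% of all genes were. In each library a smaller share of members than of all genes passed in either direction, and the members' median log2 ratios were 0.02, -0.01 and 0.05. The genes compared reached down to 10 CPM, where counting error is larger than at the level of most members. No comparison with genes of like level was made. This limit also holds for the α-like and δ-like counts below, where 3 UMIs equal 5.13 and 12.9 CPM in the untreated library.

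**Figure D2:**
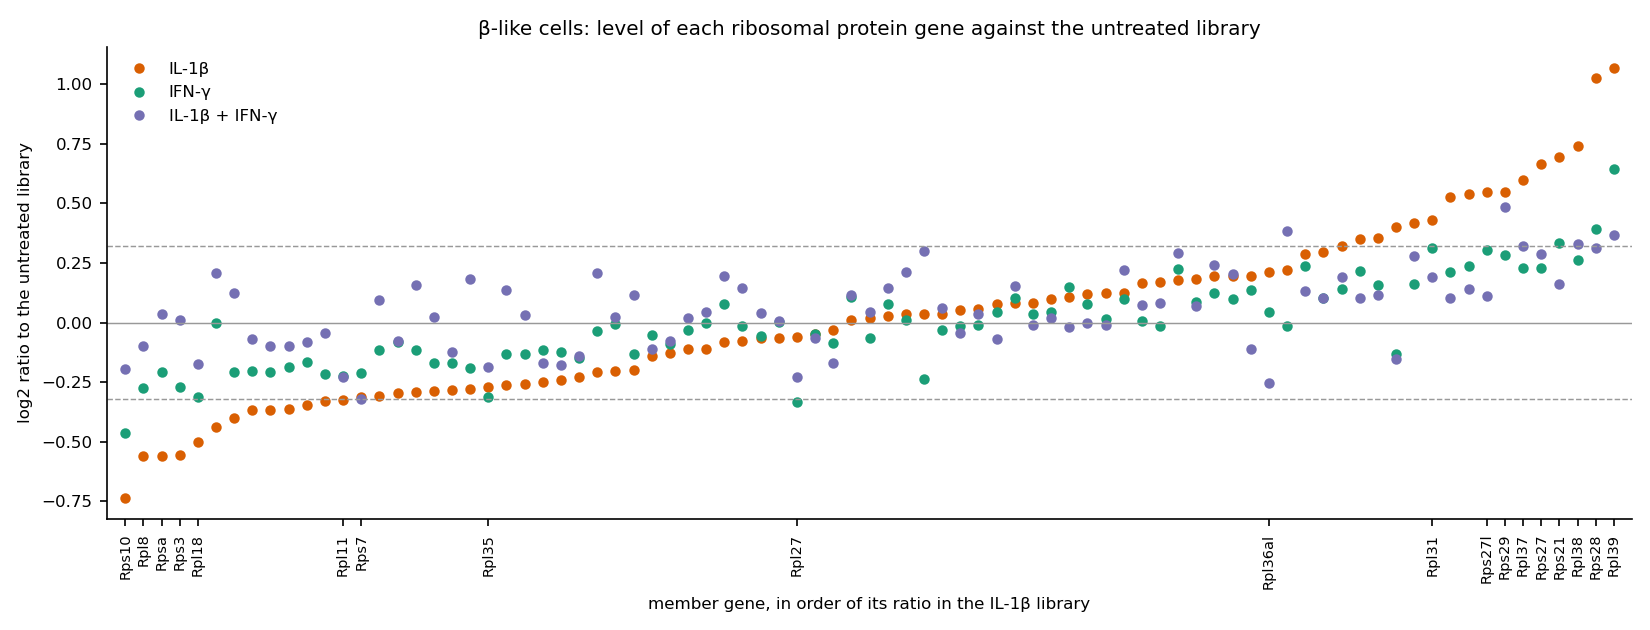
Log2 ratio to the untreated library of each of the 83 members in β-like cells, ordered by the IL-1β library; dashed lines mark 25% higher and 20% lower, and only the highest and lowest members of each library are named on the axis. IL-1β points run from -0.73 (Rps10) to 1.07 (Rpl39), while the combined library spans -0.32 to 0.48.

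The 5 highest members with IL-1β encode short proteins, of 51 to 84 residues. Rpl39, a small protein lining the exit tunnel through which the nascent chain leaves, was at 1084 CPM untreated, 2269 with IL-1β, 1694 with IFN-γ alone and 1398 with both. Its ratio to untreated was 2.09 with IL-1β (2.04 to 2.14), 1.56 with IFN-γ alone (1.53 to 1.60) and 1.29 with both (1.26 to 1.32). All 3 treated libraries were above the untreated one, and the IL-1β library stood highest. The gene lies on chrX:37082520-37085402 (mm10) and encodes 51 residues.

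Rps28, a 40S protein near the mRNA exit, was at 509 CPM untreated and 1036, 669 and 632 in the IL-1β, IFN-γ and combined libraries. Its ratios were 2.04 (1.97 to 2.11), 1.31 (1.27 to 1.36) and 1.24 (1.20 to 1.29). Rpl38, known for its role in translating Hox mRNAs during axial patterning, was at 952 untreated and 1592, 1142 and 1197 in the treated libraries. Rps21 was at 1477 and at 2387, 1863 and 1654. Rps27, a zinc finger protein of the 40S subunit, was at 1103 and at 1749, 1291 and 1347. In each of these genes the untreated library was the lowest and the IL-1β library the highest, with IL-1β ratios of 1.67, 1.62 and 1.59 for Rpl38, Rps21 and Rps27. Almost all of Rps27's sequence (98.7% of its 31-base words) also occurs in Rps27rt. Reads of those genes may thus not be told apart, and the level of Rps27 may be undercounted.

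Rps29, a zinc-binding 40S protein, was at 1333 CPM untreated, 1951 with IL-1β, 1625 with IFN-γ alone and 1865 with both, and it was the highest member in the combined library (1.40, interval 1.37 to 1.43). Rpl37, a zinc-binding 60S protein, was at 1073, 1626, 1257 and 1342, with a ratio of 1.251 with both (1.22 to 1.28). The 5 members past the threshold with both cytokines were Rps29, Rpl39, Rpl38, Rpl37 and Rps19bp1, the last at only 33.6, 39.2, 33.3 and 43.9 CPM. Rpl31, which sits at the rim of the exit tunnel, completed the 5 highest with IFN-γ beside Rpl39, Rps28, Rps21 and Rps27l, at 513, 692, 638 and 587.

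The 5 lowest members with IL-1β encode longer proteins, of 165 to 295 residues; those lowest in the other libraries included shorter ones, such as Rpl27. Rps10, a 40S protein that is ubiquitinated when ribosomes collide, was at 2406 CPM untreated, 1446 with IL-1β, 1742 with IFN-γ alone and 2099.9 with both. It was the lowest member with IL-1β (0.60, interval 0.59 to 0.62) and with IFN-γ (0.72, interval 0.71 to 0.74), and its level with both lay nearest to untreated (0.87). Rpl8, a protein near the peptidyl transferase centre, was at 2487, 1687, 2058 and 2325. Rpsa, also known as the laminin receptor, was at 2639, 1792, 2287 and 2702. Rps3, a protein of the mRNA entry channel with a known part in NF-κB complexes, was at 1784, 1212, 1481 and 1797. For Rpl8, Rpsa and Rps3 the IL-1β ratio was 0.68 each, and with both cytokines the ratios were 0.935, 1.02 and 1.01. These 3 members thus stood nearer to untreated in the combined library than in the IL-1β library.

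With both cytokines no member was 20% lower. The lowest was Rps7, at 1732 untreated and 1396, 1495 and 1388 in the treated libraries (0.80 with both, interval 0.78 to 0.82). Rpl11, which with Rpl5 binds and inhibits Mdm2, was also among the 5 lowest, at 2128, 1698, 1821 and 1816. Its partner Rpl5 was at 1912, 2061, 2121 and 1885, and the pair did not move together: the IL-1β ratio was 0.80 for Rpl11 and 1.08 for Rpl5. Rpl27 was lowest after Rps10 with IFN-γ, at 229.9, 221, 182 and 196, and shares 65.2% of its 31-base words with Rpl27-ps3. Rpl35 was at 513, 425, 413 and 451.

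The 5 most abundant members in untreated β-like cells were Rpl13, Rps24, Rpl19, Rps3a1 and Rps14. A UMI counts the 3′ end of a molecule, so these levels need no division by length. Rpl13 was at 4015 CPM untreated and 3393, 3689 and 3549 in the treated libraries, the highest member in each. Rps24 was at 3349, 3272, 3155 and 2980.5. Rps14 was at 2956, 2435, 2587 and 3351. All 5 were lower than untreated with IL-1β and with IFN-γ, by ratios of 0.78 to 0.98, and with both cytokines Rps14 was higher (1.13).

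The spread with IL-1β followed the length of the protein. Split by coding length in the GENCODE M21 annotation, the 28 shortest members (75 to 396 bases) had a summed log2 ratio of 0.34 in β-like cells (0.33 to 0.35), the 27 in the middle (399 to 552 bases) of -0.11 and the 28 longest (564 to 1257 bases) of -0.21. The short members took 24.1% of all ribosomal protein UMIs in untreated β-like cells and 31.03% with IL-1β. Spearman's rho between coding length and log2 ratio over the 83 members was -0.66. With IFN-γ the 3 groups were at 0.16, -0.08 and -0.09 (rho -0.52), and with both cytokines at 0.16, 0.01 and -0.02 (rho -0.30). These values describe genes that share cells and libraries and carry no p-value.

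The same ordering did not extend to other genes. Of genes outside the family with a mean of 50 CPM or more, 321 had a coding length as short as the short members, and their median log2 ratio with IL-1β was -0.08, against -0.05 for those of middle length and 0.09 for longer ones; rho over 3547 genes was 0.10. GC content of the transcript moved with the ratio among members (rho -0.42) and among the other genes (rho -0.38) alike with IL-1β, and with both cytokines the values were near 0 in each (0.08 and -0.10). The part of GC content in the result was not tested.

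The length ordering with IL-1β was present in every class. Short members stood above long members by 0.55 on the log2 scale in β-like cells, 0.40 in α-like, 0.49 in δ-like, 0.47 in PP-like, 0.42 in endothelial-like, 0.37 in macrophage-like and 0.52 in mesenchymal-like cells. In the combined library the same differences were 0.18, 0.05, 0.13, 0.12, 0.06, -0.04 and 0.16. Endothelial-like and mesenchymal-like classes held 8 to 34 cells a library. Set directly against the combined library, the IL-1β library had higher short members (log2 ratio 0.18 in β-like, 0.18 in α-like and 0.14 in δ-like cells) and lower long members (-0.19, -0.17 and -0.22). The excess of short over long members with IL-1β alone was thus seen in cells of each type in the same library. It was smaller in the other library that had received IL-1β. What sets these libraries apart besides IFN-γ was not tested.

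**Figure D3:**
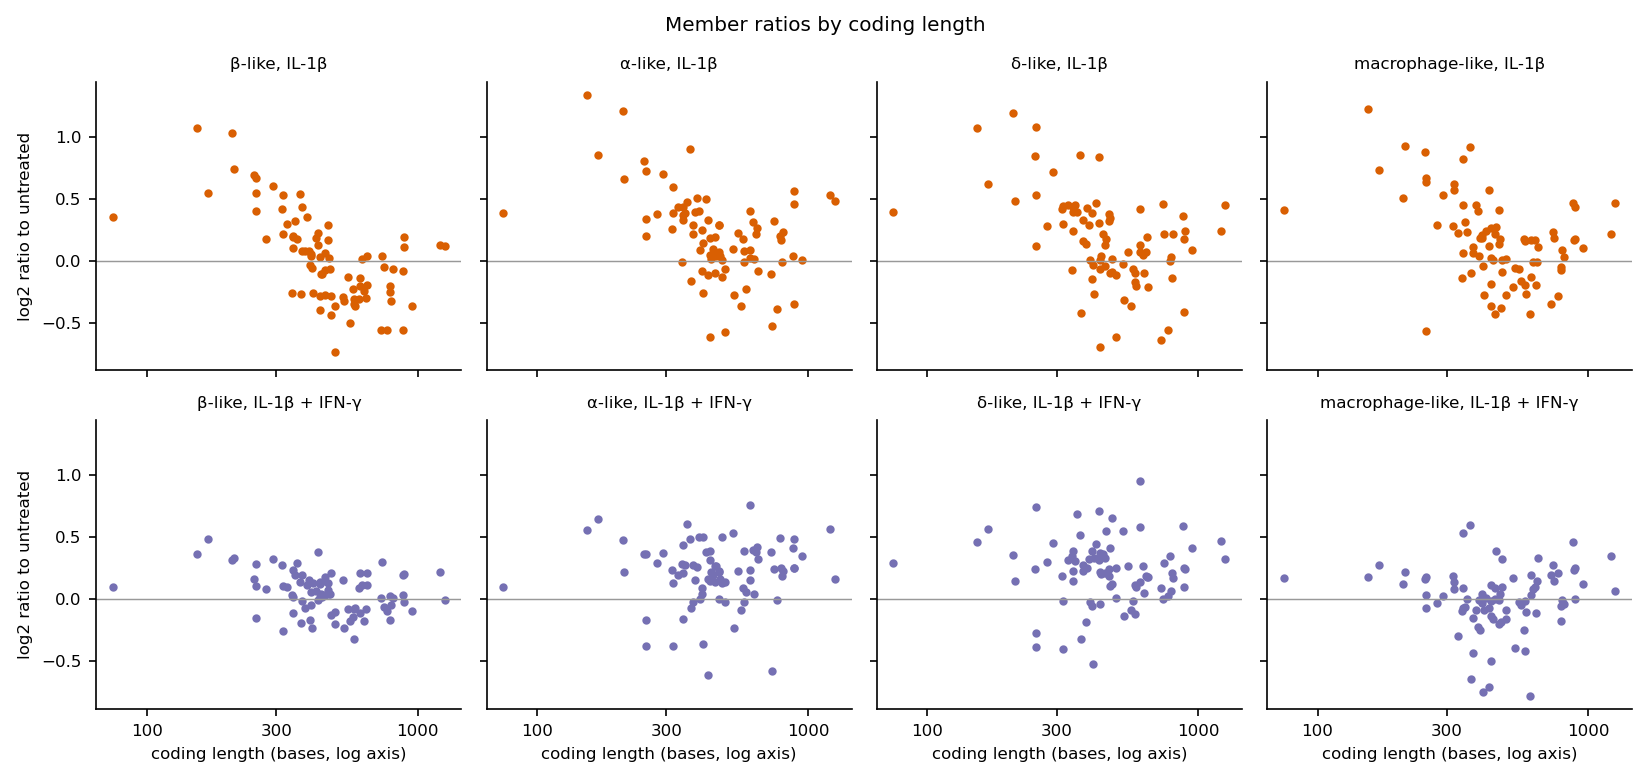
Log2 ratio to untreated (y axis) against coding length in bases (log x axis) for the 83 members in β-like, α-like, δ-like and macrophage-like cells, with IL-1β (top) and both cytokines (bottom); each point is a gene. Points fall from left to right in the top row (rho -0.66, -0.45, -0.49 and -0.44) and slope less below (-0.30, 0.06, -0.08 and 0.07).

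The 5 highest and 5 lowest members of β-like cells with IL-1β mostly lay on the same side of untreated in other cells of that library. The 5 highest (Rpl39, Rps28, Rpl38, Rps21 and Rps27) were more than 25% higher than untreated in all 8 other classes named. The 5 lowest (Rps10, Rpl8, Rpsa, Rps3 and Rpl18) were lower in 6 of those classes; in macrophage-like cells 4 of 5 were lower, with Rpsa at 1208 untreated and 1355 with IL-1β, and in acinar-like cells none was. In macrophage-like cells Rpl39 was at 960.0 CPM untreated, 2236 with IL-1β, 1219.6 with IFN-γ alone and 1085 with both, and Rps10 at 1517, 1255, 1334 and 1363. Over the 83 members, the IL-1β ratios of β-like and α-like cells correlated with Pearson's r = 0.84, those of β-like and δ-like cells with 0.88 and those of β-like and macrophage-like cells with 0.76. For both cytokines the same values were 0.45, 0.63 and 0.30. The classes come from the same libraries, so they share whatever is common to a library.

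In α-like cells, 29 members were at least 25% higher with IL-1β and 6 lower, against 26.6% and 38.1% of the 8691 genes compared. The higher members were 34.9% of the 83. With IFN-γ, 6 were higher and 6 lower, against 25.7% and 26.0% of genes, and with both cytokines 27 were higher and 5 lower, against 22.6% and 46.4%. The median member was at 0.20, 0.06 and 0.23 on the log2 scale, where the median of all genes was at -0.12, -0.01 and -0.26. With that median set at 0, the summed log2 ratios were 0.31, 0.05 and 0.50 in α-like cells and 0.21, 0.10 and 0.53 in δ-like cells.

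Rpl39 in α-like cells was at 1017 CPM untreated, 2572 with IL-1β, 1589.9 with IFN-γ alone and 1495 with both, a ratio of 2.53 with IL-1β (2.31 to 2.77). Rps20, a 40S head protein, was higher in all 3 treated libraries, at 1936, 2686, 2575 and 2955. Rps15 was the lowest with IL-1β, at 1451 and 949 (0.65, interval 0.59 to 0.72), and it was 1149 with IFN-γ alone and 1604 with both.

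A fault in the class rule touches the α-like cells and also the PP-like cells. Of the cells led by Ppy at 10% or more of UMIs, 10 of 33 in the IL-1β library were left unnamed for meeting the ductal rule. In the untreated, IFN-γ-only and combined libraries these were 2 of 29, 0 of 60 and 2 of 50. Spp1, listed as a ductal marker, was also present in Gcg-rich cells, and 150 of the 321 cells with Gcg at 10% or more of UMIs in the IL-1β library were left unnamed for meeting the ductal rule, against 9 of 84 untreated, 20 of 251 with IFN-γ alone and 27 of 155 with both. In the α-like cells that remained, the 14 ductal markers summed to 4007, 7189, 4998 and 5645 CPM, with Spp1 the most abundant and Krt17 at 0 in all but the combined one. Without the marker rule, 344 α-like cells of the IL-1β library entered in place of 182, the members at least 25% higher numbered 22 in place of 29 (26.5% of the 83, near the 24.7% of all genes), and the summed log2 ratio was 0.15 in place of 0.19.

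In δ-like cells, 28 members were higher and 7 lower with IL-1β, against 31.7% and 37.9% of 8876 genes. With IFN-γ the counts were 8 and 5 (27.5% and 33.4% of genes), and with both cytokines 28 and 3 (26.3% and 46.6%). Rps27 was at 879 CPM untreated, 1861 with IL-1β, 1147 with IFN-γ alone and 1477 with both, with ratios of 2.12 (1.81 to 2.49), 1.30 (1.12 to 1.53) and 1.68 (1.42 to 1.99). Rpl13a was the highest with both cytokines, at 137, 184, 158 and 267, and its interval was wide (1.94, 1.27 to 3.03). The untreated δ-like cells held so few UMIs that 3 UMIs equal 12.9 CPM. The 5% floor for Sst cut through these cells: 18 untreated cells and 49, 26 and 29 treated ones were led by Sst at 2% to 5% of UMIs.

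Within a library, α-like and β-like cells can be set side by side without a change of library. The summed level in α-like cells was 1.07 of that in β-like cells untreated, 1.24 with IL-1β, 1.12 with IFN-γ alone and 1.23 with both. Of 82 members at 50 CPM or more, 46 were higher in α-like cells in all 4 libraries and 5 were lower in all 4, or 56.1% and 6.10% of them, against 24.0% and 35.4% of the 3577 genes at that level. Rps27l, an inducible target of p53, led them: it was at 711, 818, 620.4 and 634 CPM in α-like and 364, 532, 450.1 and 393 in β-like cells, a log2 difference of 0.46 to 0.97. Rpl13a, the subunit of an IFN-γ-activated translation-silencing complex, followed with differences of 0.54 to 0.87. Rpl23a (0.58 to 0.74), Rplp2 and Rpl35a came next. Rpl10 was lowest, at 1936, 2252, 2134 and 2526 in α-like and 2867, 2333, 2707 and 2715 in β-like cells, so its difference ran from -0.57 untreated to -0.05 with IL-1β; Rpl10 shares 92.3% of its 31-base words with Rpl10-ps3.

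δ-like cells stood below β-like cells, with summed ratios of 0.853, 0.952, 0.882 and 0.984 in the 4 libraries. Of the 82 members, 36 were lower in all 4 and 6 higher in all 4, or 43.9% and 7.32% of them, against 26.1% and 26.8% of 3723 genes. Rpl29 was lowest, with log2 differences from -0.95 to -0.50, followed by Rpl4 (-0.75 to -0.43) and Rpl32 (-0.77 to -0.34). Rps27a, which is made as a fusion with ubiquitin, was highest, at 0.10 to 0.27.

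Several members have a paralog that can take their place or is named after them. Rpl22 and Rpl22l1, which can replace each other in the 60S subunit, were nearly equal in untreated β-like cells: Rpl22 was at 709.5, 749.8, 732 and 677 CPM and Rpl22l1 at 691, 1005, 814 and 762 in the untreated, IL-1β-only, IFN-γ-only and combined libraries. With IL-1β the ratio of Rpl22l1 was 1.45 (1.41 to 1.501) and that of Rpl22 was 1.06 (1.02 to 1.09). In macrophage-like cells Rpl22 was at 670.1, 915, 708 and 631 but Rpl22l1 at 96.6, 182, 169 and 146, so every macrophage-like value of Rpl22l1 lay below every endocrine value. Rps27 exceeded Rps27l by 1103 to 364 CPM in untreated β-like cells and by 625 to 541 in untreated macrophage-like cells.

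Rpl36a was at 516, 744, 599 and 555 in β-like cells, and Rpl36al, its paralog, at 269, 311, 277 and 226. With both cytokines Rpl36al was lower than untreated (0.84, interval 0.79 to 0.89) while Rpl36a was not (1.08, interval 1.04 to 1.12). Rpl7 hardly moved, at 1286, 1229, 1288 and 1292. Rpl7l1, a nucleolar relative of Rpl7, was at 71.9, 73.7, 61.0 and 88.5. In 3 further pairs (Rpl3 and Rpl3l, Rpl10 and Rpl10l, Rpl39 and Rpl39l) the copy was practically undetected: 3 UMIs correspond to 0.285 CPM in untreated β-like cells.

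**Figure D4:**
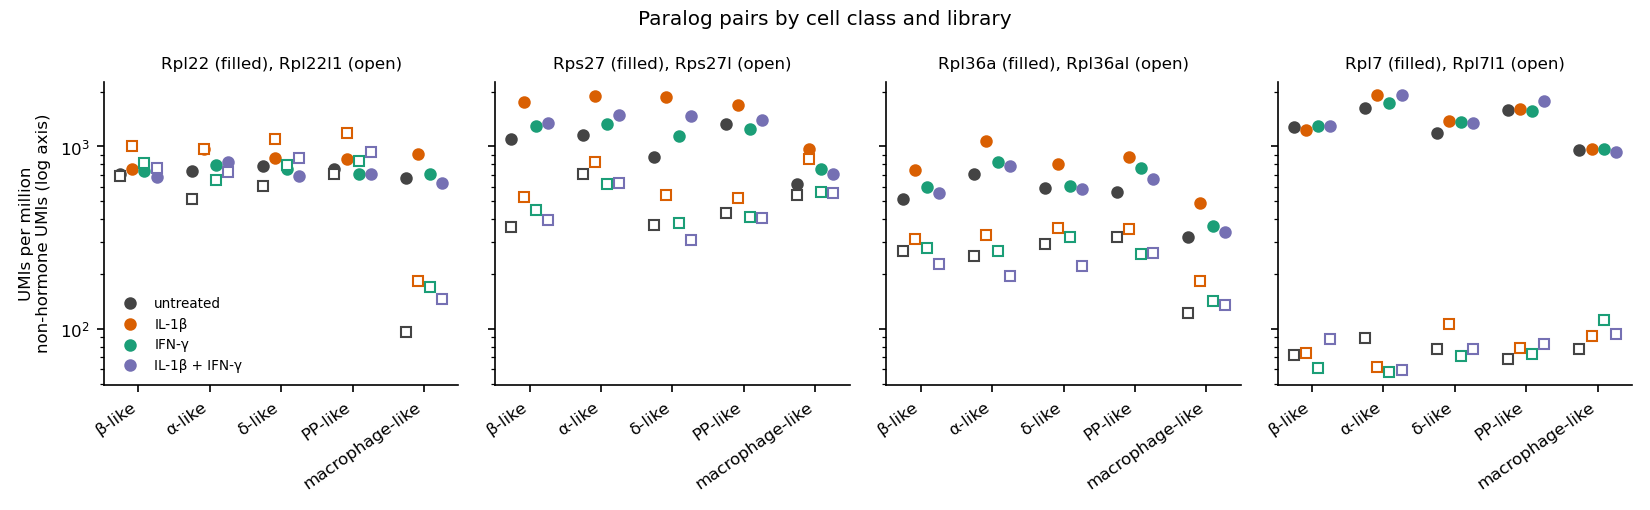
Levels (CPM of non-hormone UMIs, log axis) of 4 paralog pairs in 5 cell classes, 1 point per library, with the parent gene filled and the copy open. Rpl22l1 lies at 691 to 1005 in β-like cells and at 96.6 to 182 in macrophage-like cells, below Rpl22 at 631 to 915.

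The P stalk, which recruits elongation factors to the ribosome, is built from 3 proteins. Rplp0, its base, was at 2197, 1704, 1901 and 2054 CPM in β-like cells. Rplp1 was at 2926, 2445, 2673 and 2989.8, and Rplp2 at 1027, 1174, 1118 and 1213. The ratios were 1.14, 1.09 and 1.18 for Rplp2 and 0.776, 0.865 and 0.935 for Rplp0, and of the 3 genes only Rplp0 with IL-1β passed the threshold. In α-like cells with both cytokines all 3 were above untreated, by log2 ratios of 0.29 to 0.44. Of Rplp1's 31-base words 72.5% also occur in Gm10073.

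Among members with roles outside the ribosome, Rps6 was at 2179, 2109, 2108 and 2085 CPM in β-like cells and Rpl9 at 2604, 2221, 2346 and 2359. Rpl13a was at 200.3, 162, 185 and 214, below most members; 58.2% of its 31-base words also occur in Gm45713, which had 0 UMIs, so its level may be undercounted. None of these 3 passed the threshold in a treated library; Rpl13a came nearest, with IL-1β (0.81, interval 0.75 to 0.87).

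Ribosomal proteins under other names were read beside the members. Fau, the ubiquitin-like fusion that gives the small subunit protein eS30, was at 1965, 1911, 1849.9 and 2348 CPM in β-like cells. Rack1, the signalling scaffold of the 40S head, was at 1445, 1182, 1356 and 1519. Neither passed the threshold in a treated library.

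Other genes of the translation machinery were read from fixed lists. Their counts in β-like cells stand beside the shares of all genes, which were 27.3% higher and 33.3% lower with IL-1β, 15.3% each with IFN-γ, and 22.2% and 39.5% with both cytokines. Of 30 initiation factors measured in β-like cells, 16 were at least 25% higher and 3 lower with IL-1β, 2 and 1 with IFN-γ, and 14 and 3 with both, with medians of 0.36, 0.02 and 0.27 beside -0.04, -0.004 and -0.16 for all genes. Pabpc1, the poly(A)-binding protein, was at 446 CPM untreated and 2018, 576 and 1553 in the IL-1β, IFN-γ and combined libraries. Eif6, which keeps the subunits apart during 60S maturation, was at 93.8, 272, 102 and 433. Both genes were highest in the 2 libraries that received IL-1β. Eif2s3x was at 67.2, 136, 102 and 101, and Eif1b, lowest with both cytokines, at 189.6, 173, 173 and 124.

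Of 24 ribosome biogenesis genes, 11 were higher and 2 lower with IL-1β, 1 and 1 with IFN-γ, and 13 and 4 with both (medians 0.27, -0.03 and 0.36). Nop58, a core protein of box C/D particles, was at 61.7, 133, 78.1 and 137. Myc, a transcription factor that drives ribosome synthesis, was at 5.60, 18.02, 4.98 and 13.4. Ubtf, the RNA polymerase I upstream factor, was at 76.9, 42.5, 65.8 and 38.1. Myc and Nop58 were high in the 2 libraries with IL-1β and Ubtf was low there, while the median ribosomal protein gene stayed within 0.05 of untreated on the log2 scale.

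Of 8 elongation factors measured in β-like cells, 2 were higher and 3 lower with IL-1β, and 1 was higher and 0 lower with both; the IL-1β counts lay near the shares of all genes. Eef1a1, which delivers aminoacyl-tRNA, was the most abundant of them, at 4789, 6528, 6022 and 5279. Eif5a was at 486, 324, 378 and 579, and Eef1g at 826, 568, 667 and 714. Of 19 other mRNAs known to carry a 5′ TOP, 6 were higher and 3 lower with IL-1β, 3 and 1 with IFN-γ, and 4 and 2 with both. These counts lay near the shares of all genes for higher calls. Hnrnpa1, an RNA-binding protein of splicing, was at 119, 225, 157 and 173. This list shares genes with those above, among them Eef1a1, Pabpc1 and Npm1.

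Of 14 genes of the mTOR pathway, 2 were higher and 5 lower with IL-1β, 1 and 3 with IFN-γ, and 4 and 5 with both, among so few genes that no departure from the shares of all genes can be read from them. Eif4ebp1, the repressor of cap binding, was at 77.6, 166, 72.5 and 215 in β-like cells. Tsc1, which restrains mTOR, was at 49.9, 62.1, 62.4 and 98.5. In α-like cells Eif4ebp1 was at 46.1, 34.9, 13.6 and 59.7.

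The nuclear genes of the mitochondrial ribosome had lower sums than those of the cytosolic one. Of 76 measured in β-like cells, 7 were higher and 34 lower with IL-1β, 4 and 13 with IFN-γ, and 7 and 30 with both; with IFN-γ and with both, the share of lower genes was close to that of all genes (15.3% and 39.5%). Their summed log2 ratios were -0.24, -0.11 and -0.22, against -0.03, -0.02 and 0.04 for the cytosolic family. In α-like cells the sums were -0.43, -0.29 and -0.50 and the cytosolic ones 0.19, 0.04 and 0.24. Mrps11 was at 54.2, 21.9, 40.1 and 29.9, and Mrps6 ran the other way, at 10.9, 16.8, 13.8 and 23.2.

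**Figure D5:**
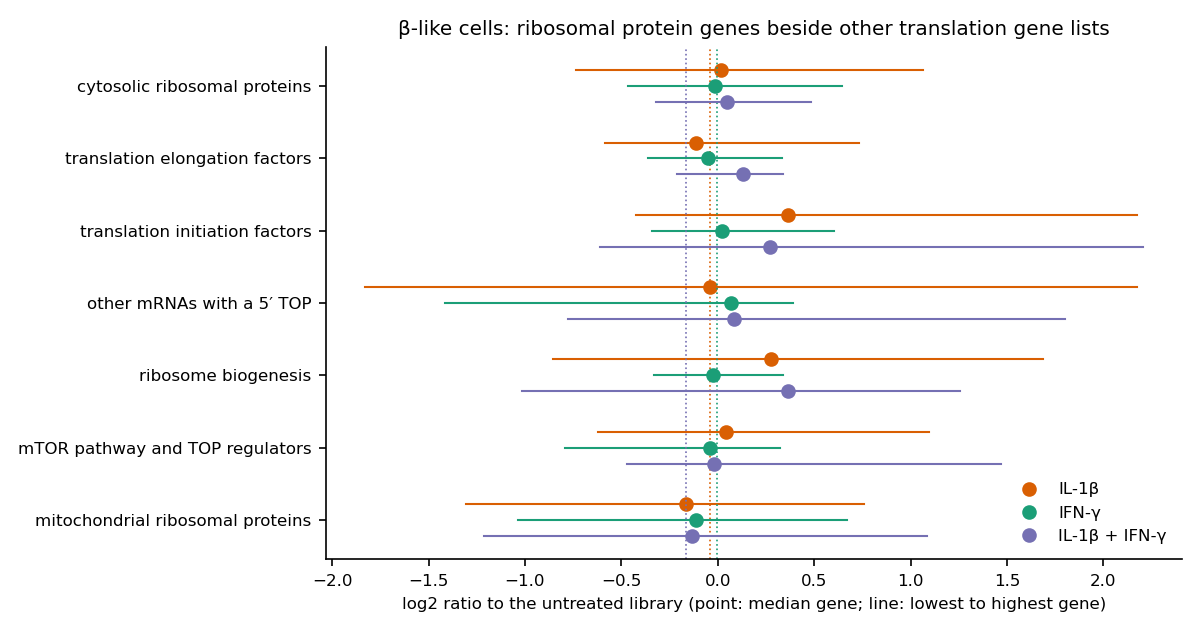
Log2 ratio to untreated in β-like cells for the cytosolic ribosomal protein genes and 6 other lists; points are medians, lines the lowest to highest gene, and dotted lines the median of all genes. The ribosomal protein medians lie at 0.02, -0.01 and 0.05, initiation factors at 0.36, 0.02 and 0.27 and mitochondrial ribosomal proteins at -0.17, -0.11 and -0.14.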

How the data were processed

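Islet cells of 4 libraries were analysed, 1 per condition, from 10x Genomics 3′ count matrices deposited by the authors: whole-number UMI counts per gene and barcode, not normalised. Per the submitters' processing notes, reads were aligned to mm10 with Cell Ranger (the matrix header gives software version 3.0.0). The labels and the study's methods name different versions of the kit. The 4 matrices held 50731370, 20056630, 31209339 and 25716645 UMIs (untreated, IL-1β, IFN-γ, both). The filter on barcodes was 200 to 4000 genes and a mitochondrial share no higher than 12%. Doublets were limited only by the upper gene limit and by the exclusion of mixed hormones; no caller was run.

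Counts were summed per class and library and divided by non-hormone UMIs (CPM). Non-endocrine classes needed 3 markers at 1% of UMIs together and hormones under 10%. Genes with a mean of 10 CPM over the 4 libraries were compared, and a gene was called at 25% higher or 20% lower. The text names, among members with a mean of 50 CPM, the 5 highest and lowest of each β-like comparison and of α-like or δ-like against β-like cells, the 5 most abundant, and members fixed by role or paralogy; of other lists, the 3 at each end. Rps15 and Rps20 in α-like cells were named after their values were seen, and so were the δ-like values of Rps27 and Rpl13a. The members and lists were chosen with earlier results of these data known. Ratios carry exact conditional binomial intervals (Python 3.11.15, numpy 2.4.6, scipy 1.17.1, pandas 2.3.3), and the code was tested on simulated data. Lengths, GC content and shared 31-base words came from GENCODE M21. The 16 alternatives changed filters, totals, classes, thresholds and scale. Some genes that the naming rule covers are not reported here.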

Additional observations from a re-analysis of the deposited data

Results flagged for a closer look

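The summed level of the ribosomal protein genes moved one way from untreated in β-like cells and the other way in α-like and δ-like cells, in the libraries with a single cytokine. With IL-1β the log2 ratio in α-like cells minus that in β-like cells was 0.22, and in δ-like minus β-like cells it was 0.16. With IFN-γ the same differences were 0.064 and 0.049. Each condition is 1 library, so the difference was not tested. With both cytokines all 3 classes were above untreated. The opposite direction also depends on the setting. With hormone genes kept in the total, the β-like sums lay above untreated (0.42 with IL-1β and 0.30 with IFN-γ), as those of the other classes did. With each cell counted equally, the β-like IL-1β sum was 0.01, and the IFN-γ sums were -0.02 in α-like and -0.007 in δ-like cells. With a hormone floor of 2%, the δ-like IFN-γ sum was -0.01, and with the median gene set at 0 the β-like IL-1β sum was 0.02.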

How the results depend on the processing

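No paired analysis was possible because each group has 1 library. Of 288 counts of members past the threshold, recomputed under 16 other settings, 2 of them chosen after seeing the data, 229 stayed within 1.5 times their value and 59 did not. Of 144 summed log2 ratios, 66 moved out of their counting interval. Summed log2 ratios changed side in β-like cells with hormone genes kept in the total (0.42 with IL-1β, 0.30 with IFN-γ), with the median gene set at 0 (0.02 with IL-1β) and with each cell counted equally (0.01 with IL-1β); and, with IFN-γ, with each cell counted equally in α-like (-0.02) and δ-like cells (-0.007) and with a 2% hormone floor in δ-like cells (-0.01). Counts below are higher, then lower. Shares of all genes called higher are given only with hormone genes kept in the total and, for both cytokines, with the median gene set at 0. The other counts below show only how the calls moved with the setting. No departure from all genes can be read from them.
With 1.5-fold as the threshold, β-like cells had 6 and 1 with IL-1β, 1 and 0 with IFN-γ, and 0 higher with both; α-like cells had 9 and 1, 1 and 1, and 3 and 1; δ-like cells had 8 and 3, 1 and 1, and 6 and 0. With hormone genes kept in the total, β-like cells had 52 and 0 with IL-1β, 37 and 0 with IFN-γ and 38 higher with both; α-like cells had 3 lower with IL-1β, 17 and 3 with IFN-γ, and 43 and 2 with both; δ-like cells had 4 lower with IL-1β, and 43 and 1 with both. Under that total the share of all genes called higher with IL-1β, IFN-γ and both was 57.7%, 50.6% and 36.3% in β-like, 30.8%, 33.1% and 26.3% in α-like and 36.1%, 28.7% and 29.8% in δ-like cells. With the median gene set at 0, the counts for both cytokines were 21 higher in β-like, 64 and 1 in α-like, and 66 and 0 in δ-like cells, where 30.2%, 32.9% and 38.1% of all genes were higher, and α-like cells had 3 lower with IL-1β. With each cell counted equally, IFN-γ gave 5 and 1 in β-like and 3 higher in α-like cells, and both cytokines 3 lower in α-like cells. Without the upper gene limit, β-like cells had 3 and 1 with both, α-like cells 3 higher with IFN-γ and 3 lower with both, and δ-like cells 5 higher with IFN-γ. On the scale of log2 of mean UMIs per 10000 plus 1, IFN-γ gave 1, 2 and 3 lower in β-like, α-like and δ-like cells, and both cytokines gave 2 higher in β-like, 0 lower in α-like and 1 lower in δ-like cells. With mitochondrial genes also left out of the total, β-like cells had 3 and 1 with both. In cells of 5000 to 15000 UMIs, both cytokines gave 8 higher in β-like and 3 lower in α-like cells. A 10% hormone floor gave 2 lower in α-like cells with both. A 2% floor, chosen after seeing the data, gave 5 higher with IFN-γ and 1 lower with both in δ-like cells. With no filter on low values, β-like cells had 1 lower with both. Changes of total move every gene by the same amount, so they shift counts without changing the order of members; for the other settings the cause was not tested.

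Cell number limits the small classes: the untreated library gave 78 α-like and 37 δ-like cells, and every ratio in those classes is set against them. No library was replicated, so the spread between replicates is unknown, and intervals for counting error are narrower than it would be by an amount these data cannot give.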

Other observations

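Barcodes over the mitochondrial limit entered no comparison. They numbered 1120 in the untreated, 742 in the IL-1β-only, 1226 in the IFN-γ-only and 447 in the combined library, and ribosomal protein genes took 3.78%, 6.78%, 6.77% and 5.06% of their non-hormone UMIs. The 853 kept cells that stayed unnamed were at 13.1%, 14.4%, 13.8% and 14.6%.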
